A study of Mus musculus with 6 samples.

Results

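The chemokine family of mouse skin papillomas was compared between Atf2 wild-type and Atf2 knockout animals. Members were all array probes whose gene symbol in the platform annotation begins with Ccl, Ccr, Cxcl, Cxcr, Cx3cl, Cx3cr, Xcl or Xcr followed by a digit, which gave 70 of 46116 probes and 55 of 17658 named genes. The mice were of mixed FVB and C57bl6 background and carried papillomas at about 9 months of age, after a single DMBA application, a mutagen, and 30 weeks of TPA, a tumour promoter, in both genotypes. Papilloma RNA was pooled from 2 wild-type mice and, separately, from 3 knockout mice, and 3 Illumina bead arrays of one chip were hybridised with each pool. The labels do not say how or in which cells Atf2 was removed.

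Within a pool, the 3 arrays are technical replicates of the same RNA. Each SD, SE and p-value therefore measures the spread between arrays, the genotype comparison has no replicate check, and genotype cannot be told apart from position on the chip or from the mice that entered each pool. In bulk tissue, fewer cells of a type and less RNA per cell also cannot be told apart. Signed values are log2 differences of normalized intensity, knockout minus wild type. A probe passed when limma's adjusted p was under 0.05 and the difference was at least 2-fold, and only then are "rose" and "fell" used.

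Chemokines are small secreted proteins that guide leukocytes along concentration gradients by binding G protein-coupled receptors on the cell surface. They are classed by the spacing of their first cysteines as CC, CXC, XC and CX3C ligands. Many are induced through NF-kappaB and AP-1 factors during inflammation, while others are made at rest and keep lymphocytes and dendritic cells in place. Keratinocytes, fibroblasts, endothelium and infiltrating leukocytes all produce them in inflamed skin. ATF2 belongs to the ATF and CREB factors, which bind the cyclic AMP response element as dimers, among them dimers with Jun.

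Before the values, the promoters of Ccl9, Cxcl9, Cxcl1 and Cxcl2 are shown. No promoter sequence was available for Ccl4 and Ccl11, which rose too. Ccl9 and Cxcl9 rose in the knockout pool, and Cxcl1 and Cxcl2 are neutrophil-attracting ligands that did not. Each is the RefSeq window of 300 bases on build GRCm38.p6, from 250 before to 50 after the gene start. Capitals mark matches to an NF-kappaB motif spelled GGNNTTNCC, searched on both strands.
Ccl9, chr11:83578587-83578886, minus strand: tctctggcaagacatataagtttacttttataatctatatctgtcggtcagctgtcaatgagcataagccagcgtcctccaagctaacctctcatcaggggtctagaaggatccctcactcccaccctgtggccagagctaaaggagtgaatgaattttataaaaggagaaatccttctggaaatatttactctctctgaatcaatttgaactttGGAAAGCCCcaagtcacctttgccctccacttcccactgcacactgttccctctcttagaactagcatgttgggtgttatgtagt
Cxcl9, chr5:92328030-92328329, minus strand: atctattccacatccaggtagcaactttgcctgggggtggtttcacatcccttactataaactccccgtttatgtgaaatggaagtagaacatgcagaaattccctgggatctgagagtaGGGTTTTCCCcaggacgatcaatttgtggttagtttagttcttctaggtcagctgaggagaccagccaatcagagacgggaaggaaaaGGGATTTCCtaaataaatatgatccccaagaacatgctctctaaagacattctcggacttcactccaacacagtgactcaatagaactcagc
Cxcl1, chr5:90890995-90891294, plus strand: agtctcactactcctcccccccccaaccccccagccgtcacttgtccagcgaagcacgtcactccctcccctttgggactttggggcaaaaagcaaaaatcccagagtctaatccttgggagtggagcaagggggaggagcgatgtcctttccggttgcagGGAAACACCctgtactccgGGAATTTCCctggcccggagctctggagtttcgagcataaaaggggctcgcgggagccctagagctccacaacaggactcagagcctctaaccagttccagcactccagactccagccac
Cxcl2, chr5:90903649-90903948, plus strand: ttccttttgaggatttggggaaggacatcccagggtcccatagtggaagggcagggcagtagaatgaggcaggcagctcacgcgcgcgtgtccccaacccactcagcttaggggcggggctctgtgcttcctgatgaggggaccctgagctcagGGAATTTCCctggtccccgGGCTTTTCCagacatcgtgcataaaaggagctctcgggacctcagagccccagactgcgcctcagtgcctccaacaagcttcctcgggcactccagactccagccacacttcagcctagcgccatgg

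The Ccl9 window held 1 such match, the Cxcl9 window 3, the first of which overlaps the next, and the Cxcl1 and Cxcl2 windows 2 each. Thus the motif occurred in promoters of both genes that rose and genes that did not. The table held 45 windows for 41 member genes, and 12 of the 45 (26.7%) matched, against 5244 of all 32851 windows (16%). An AP-1 motif spelled TGANTCA was found in 8 member windows (17.8%, against 7.81% of all), including 1 match each in Ccl9 and Cxcl9, neither overlapping an NF-kappaB match. A cyclic AMP response element spelled TGACGTNA was in 0 of the 45 member windows and in 2.93% of all. A match describes letters in a window and is no evidence of binding, and a missing match says only that these letters are not in it.

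Of the 70 probes, 28 probes of 24 genes were above background on all 3 arrays of at least one pool, and 32 were above background on no array. Background was each array's mode of raw intensity plus 3 SD, a threshold between 140.8 and 181.4 over the 6 arrays. Raw intensity includes that background, whose modes were 100.6 to 123.8 on the knockout arrays and 122.1 to 134.3 on the wild-type arrays. Knockout arrays 2 and 3 lay below every wild-type array, and knockout array 1 did not. Raw values are therefore shown for each array, and differences are taken on the normalized scale. Of the 55 genes, 43 had a tested probe, 50 probes in all. The filter kept probes whose mean over both pools was above the median of the array, and none of the 20 probes left out was above background on any array.

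Across the tested members, 4 genes rose in the knockout pool and none fell. They were the CC ligands Ccl4, Ccl9 and Ccl11 and the CXC ligand Cxcl9. Among all tested probes 0.984% rose and 3.90% fell, and with 1 representing probe per gene (its brightest tested one) 1.12% of all genes rose and 2.48% fell, against 9.30% and none of the 43 member genes. At an adjusted p under 0.05 with no fold limit, 12 member probes were higher and 11 lower, against 20.9% and 17.6% of all tested probes. The median difference over the 43 genes was -0.04, with 19 above 0, and over all 12096 tested genes it was 0.08, with 62.1% above 0. The family's median thus lay below that of all genes, beside the 4 rises.

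**Figure D1:**
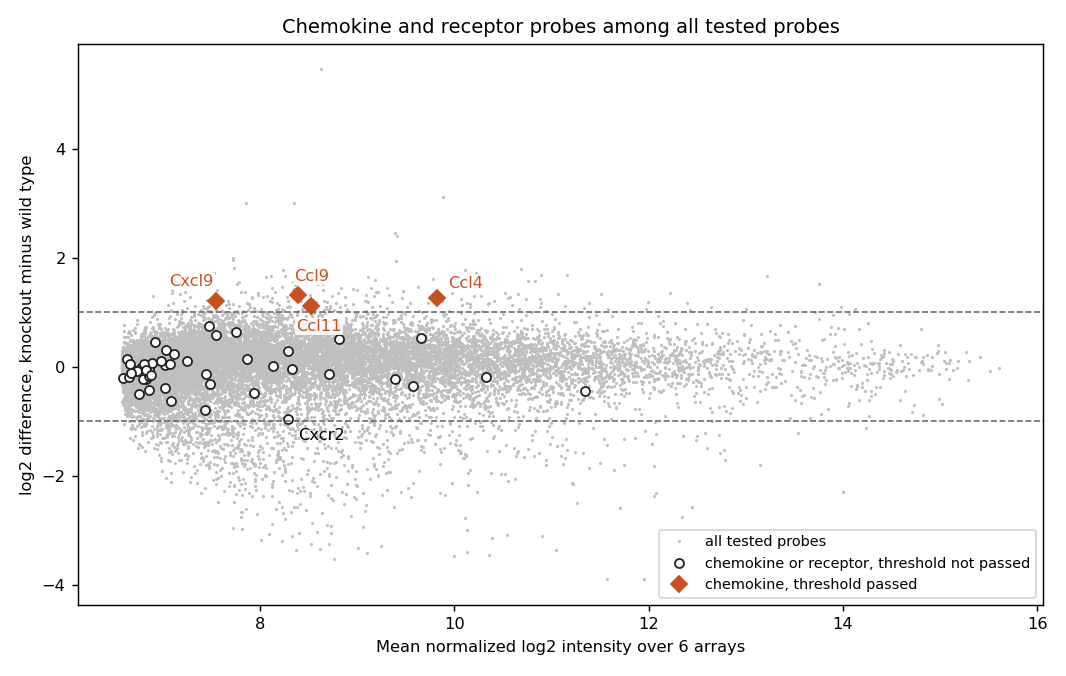
Log2 difference (knockout minus wild type) against mean normalized log2 intensity over 6 arrays, with 1 point per tested probe; dashed lines mark the 2-fold limit. Ccl4, Ccl9, Ccl11 and Cxcl9 (filled diamonds) lie above the upper line, Cxcr2 lies just inside the lower one at -0.95, and the other chemokine and receptor probes (open circles) lie between the lines.

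Inflammatory CC ligands held 3 of the 4 rises. Of 12 tested genes of this group 9 had differences above 0, with a median of 0.41 and a range from -0.48 to 1.32. Ccl4, also known as MIP-1 beta, attracts monocytes and T cells. On its brighter probe (430047) it read 695.4, 667 and 693.4 in the wild-type pool and 1655.1, 1600.3 and 901.2 in the knockout pool. Every knockout array exceeded every wild-type array, knockout array 3 by much less than the others. The means were 685 ± 15.9 and 1386 ± 420 (SD, n = 3 arrays each), and after normalization Ccl4 rose 2.39-fold (1.26, SE 0.12, limma adjusted p = 5.47e-06). Its dimmer probe (50368) was also higher, at 0.76, but stayed inside the 2-fold limit; with each array's mode subtracted in place of normexp it passed, at 1.38.

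Ccl9, a CC ligand of mice that acts through the receptor Ccr1 on myeloid cells, read 274.6, 290.6 and 275 in the wild-type pool and 550.5, 495 and 484.4 in the knockout pool. The pools did not overlap, and the knockout arrays lay close together. Ccl9 rose 2.49-fold (1.32, SE 0.10, limma adjusted p = 4.88e-07), from a raw mean of 280 ± 9.12 to 510 ± 35.5 (SD, n = 3 arrays each). Ccl11, or eotaxin, attracts eosinophils through Ccr3. Its values were 316.9, 321.5 and 327.6 against 571.7, 514.5 and 482.5, again without overlap. Ccl11 rose 2.17-fold (1.12, SE 0.09, limma adjusted p = 1.08e-06). It lay near the limit, at 0.97 in the deposited log2 table and 0.98 with a normexp offset of 100, where it did not pass.

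Other inflammatory CC ligands stayed inside the 2-fold limit. Ccl3, or MIP-1 alpha, the neighbour of Ccl4, read 457.5, 469.8 and 457.9 against 611.3, 552.9 and 416.4 and was at 0.51 (SE 0.08, limma adjusted p = 0.000297). The raw values of the pools overlapped and the normalized ones did not. Ccl8 and Ccl12 were at 0.53 and 0.58. Ccl12 passed with the mode subtracted (1.07). Ccl8 read 776.4, 783.2 and 765.6 against 1183.4, 1100 and 605.1, so that knockout array 3 lay below every wild-type array in raw values, while the normalized values did not overlap.

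Ccl2, or MCP-1, which recruits monocytes through Ccr2, was lower instead. It read 360.6, 381.1 and 362.5 in the wild-type pool and 231.7, 228.9 and 184.6 in the knockout pool, without overlap. The difference was -0.48 (SE 0.08, limma adjusted p = 0.000417), inside the limit. Ccl7, which lies beside Ccl2 and shares its receptor, was at 0.14 (adjusted p = 0.227), with raw knockout values below and normalized ones above the wild-type values. Ccl6 was at 0.31 and above background on 1 wild-type and 2 knockout arrays. Ccl20, which attracts Ccr6-bearing cells, was above background on 2 wild-type arrays and no knockout array, at -0.21 (limma adjusted p = 0.209). Ccl22 was at 0.03 and Ccl17 at -0.02, while Ccl5 and Ccl24 were not tested and were above background on no array.

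**Figure D2:**
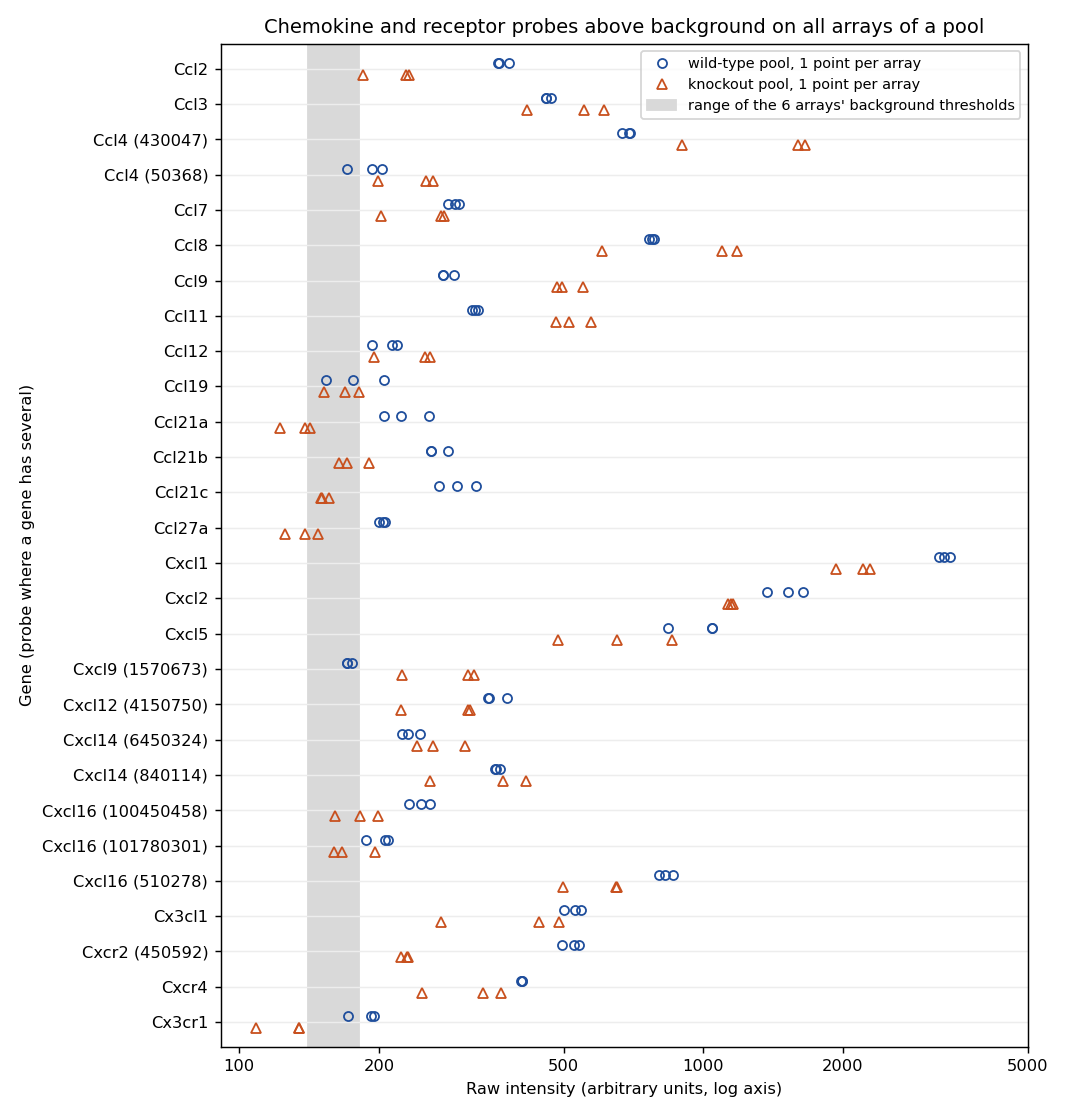
Raw intensity (log axis) of the 28 probes above background on all arrays of a pool, with 1 symbol per array; circles are the wild-type pool, triangles the knockout pool, and the grey band spans the 6 background thresholds. Triangles lie to the right of circles for Ccl4 (430047), Ccl9, Ccl11 and Cxcl9 (1570673), and to the left for Ccl2, the Ccl21 genes, Cxcl1, Cxcr2, Ccl7, Ccl27a, Cxcl2, Cxcl12, Cx3cl1, Cxcr4, Cx3cr1 and 2 Cxcl16 probes, some of which had normalized differences near or above 0 (Ccl7 at 0.14, Cxcl12 at 0.01).

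Most ligands grouped here as homeostatic CC ligands are made at rest and position lymphocytes and dendritic cells. Over 8 tested genes the group had a median of -0.26, with 1 above 0 and none past the threshold. That median includes genes at background, among them Ccl1 and Ccl28. The Ccl21 genes encode the ligand of Ccr7 made by lymphatic endothelium. Ccl21c read 295, 269.4 and 323.6 in the wild-type pool and 150.8, 155.9 and 150.3 in the knockout pool, where 2 arrays were above background. Its difference was -0.78 (SE 0.12, limma adjusted p = 0.00018), and it passed only with the mode subtracted, at -1.50. Ccl21b was at -0.32 (adjusted p = 0.0254). Ccl21a was above background on no knockout array and at least 1.26-fold lower there (fitted difference -0.62, adjusted p = 0.0003). These genes are near-identical copies, so their probes may read the same transcripts and do not count as separate observations. The group's median and count include all of them.

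Ccl27a, a keratinocyte ligand that draws Ccr10-bearing T cells to skin, read 204.2, 200.4 and 206.2 against 147.9, 138.9 and 125.5. It was above background on no knockout array and at least 1.11-fold lower there (fitted difference -0.39, limma adjusted p = 0.0015). Ccl19, the other ligand of Ccr7, was close to background in both pools, at 0.23 (adjusted p = 0.131). Ccl25, the ligand of Ccr9, exceeded background on 1 wild-type array only, on both tested probes, and Ccl1 and Ccl28 were above background on no array.

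Neutrophil-attracting CXC ligands, which act through Cxcr2, were read above background on all 6 arrays for Cxcl1, Cxcl2 and Cxcl5. All 3 had differences below 0 and none passed the threshold. Cxcl1, or KC, read 3396.6, 3223.4 and 3307.1 in the wild-type pool and 2282.3, 2206.6 and 1928.2 in the knockout pool. The pools did not overlap, and the difference was -0.44 (SE 0.08, limma adjusted p = 0.000931). Cxcl5 read 1045.9, 1043.6 and 838.9 against 854.6, 651.4 and 485.3, with overlap, at -0.34 (adjusted p = 0.0348). Cxcl2, or MIP-2, was at -0.19 (adjusted p = 0.218). Cxcl3 and Cxcl15 were above background on no array.

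Their receptor gene Cxcr2, found on neutrophils, had the lowest difference of the tested members in the reported setting. With the mode subtracted Cxcr2 was above Ccl21c. The probe above background (450592) read 497.1, 527.6 and 541 in the wild-type pool and 231.5, 223.3 and 229.5 in the knockout pool, and the pools were far apart. The difference of -0.95 (SE 0.11, limma adjusted p = 3.23e-05), 1.93-fold lower, ended just short of the 2-fold limit. It passed at -1.08 without knockout array 3, at -1.02 after scaling to the 75th percentile, at -1.07 with a normexp offset of 16 and at -1.34 with the mode subtracted. A further Cxcr2 probe was above background on no array. In the list of neutrophil genes given below, 2 rose and none fell, with a median of 0.08. That median includes genes at background, as 5 of the 12 on the array were above background nowhere. Its relation to Cxcr2 was not tested. Cxcr1, the related receptor gene, was above background on 2 knockout arrays only, with a fitted difference of 0.45 (limma adjusted p = 0.00284). Its bound was 1.15-fold higher, on a knockout mean that includes array 3, at background. In raw values that array lay below every wild-type array, while the normalized values did not overlap. Ppbp, a platelet ligand of the same receptor outside the symbol rule, was at -0.64 (limma adjusted p = 0.019). Its normalized values overlapped, with knockout array 3 at 10.45 and wild-type array 2 at 10.43. The platelet ligand Pf4 was at 0.85. Ppbp and Pf4 were both chosen after their values were seen.

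Cxcl9 was the interferon-induced CXC ligand that rose. It attracts activated T cells and NK cells through Cxcr3. On probe 1570673 it read 170.6, 174.9 and 170.7 in the wild-type pool, where 1 array was above background, and 321.2, 311 and 224.5 in the knockout pool. Cxcl9 rose 2.32-fold (1.22, SE 0.09, limma adjusted p = 4.45e-07) without overlap. The size depended on how the background was treated, from 0.93 in the deposited log2 table, where it did not pass, to 1.98 with the mode subtracted. Its other probe was above background on no array (0.14), as were Cxcl10 and Cxcl11. The receptor gene Cxcr3 was above background on 2 wild-type arrays and on no knockout array. Its fitted difference was -0.50 (limma adjusted p = 0.000394), but no bound above 1-fold could be given.

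The remaining CXC and CX3C ligands stayed inside the 2-fold limit, and Cxcl13 and Cxcl17 were above background on no array. Cxcl12, a stromal ligand made by fibroblasts, read 377.2, 344.9 and 344.3 against 314.7, 311.8 and 223.1 on the probe above background, at 0.01 (SE 0.09, limma adjusted p = 0.919), and its receptor gene Cxcr4 was at -0.03 (SE 0.08, adjusted p = 0.806). Cxcl14, an epithelial ligand, had probes at 0.65 (6450324, adjusted p = 8.62e-05; 1.08 and past the threshold with the mode subtracted) and 0.30 (840114, adjusted p = 0.0212). Cxcl16, a membrane-bound ligand of Cxcr6, had 3 probes at -0.22, -0.13 and 0.12, which do not share a direction. Cx3cl1, or fractalkine, was at -0.14 (SE 0.11, adjusted p = 0.391). Its receptor gene Cx3cr1, found on monocytes and Langerhans cells, was above background on every wild-type array and no knockout array. The fitted difference of Cx3cr1 was -0.43 (limma adjusted p = 0.00296), but its bound of 1.00-fold leaves no measured size. Xcl1 was above background on no array, and its receptor gene Xcr1 was at 0.11.

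CC receptors were largely at background on these arrays. Of 10 genes, 9 were above background on no array, among them Ccr2, Ccr3, Ccr7 and Ccr10, which bind ligands described above. Ccr1, a receptor for Ccl3 and Ccl9, was above background on 2 arrays of each pool, at 0.06 (SE 0.10, limma adjusted p = 0.693). For receptors not above background a difference between the pools was not detectable. Among CXC receptors, Cxcr6 exceeded background on a single wild-type array and Cxcr5 on none. In all, 22 of the 55 genes were above background on no array.

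**Figure D3:**
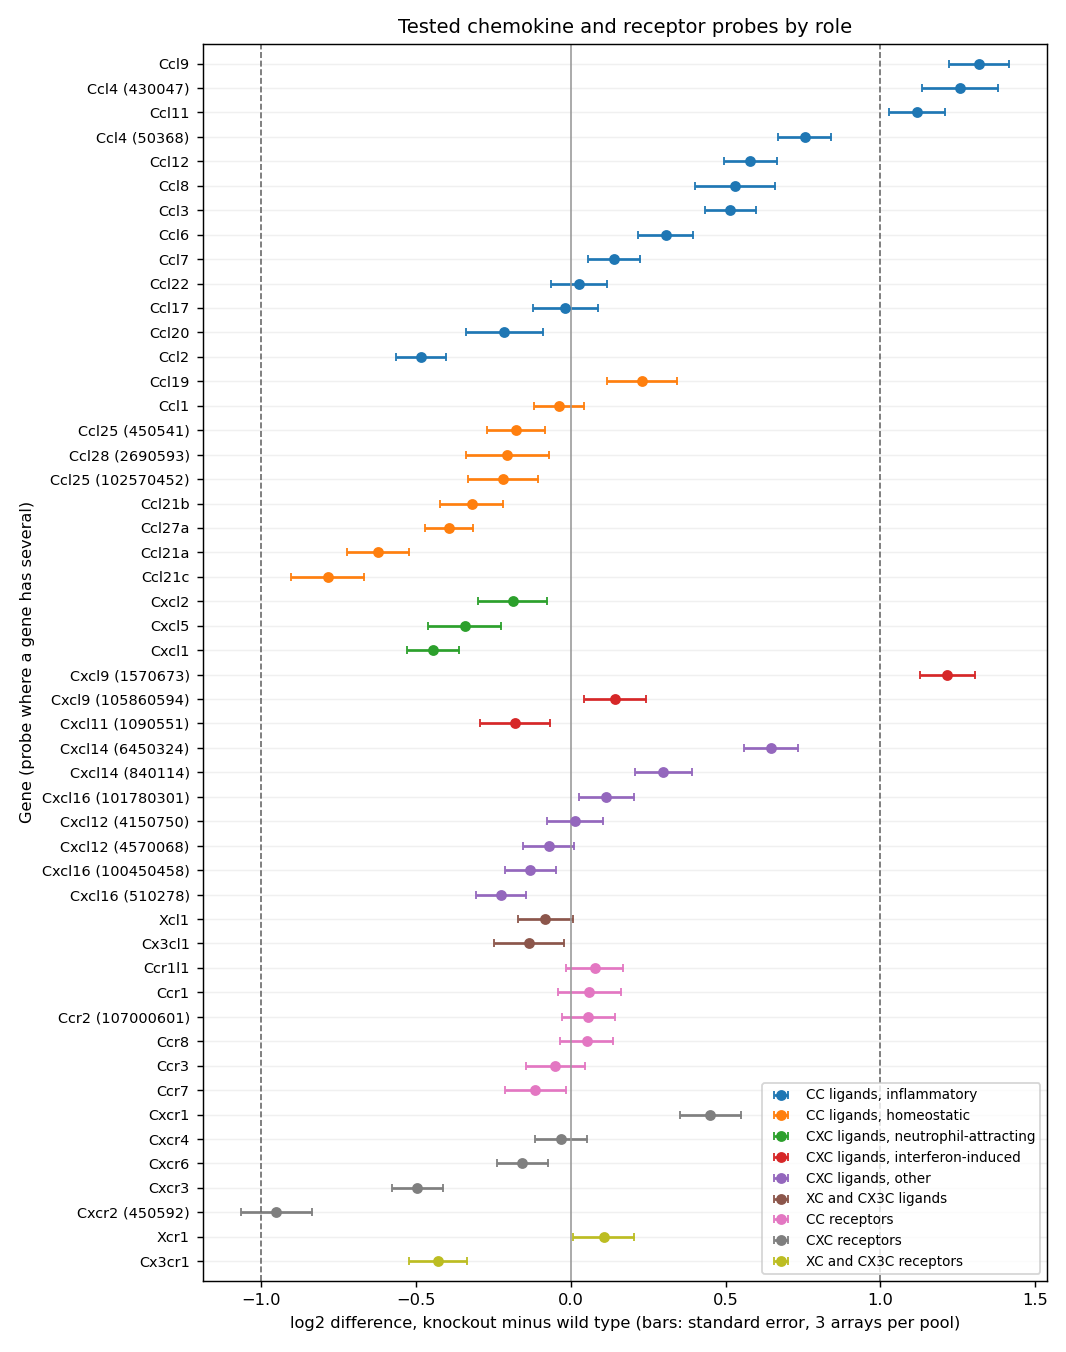
Log2 differences (knockout minus wild type) of the 50 tested chemokine and receptor probes, coloured by role; bars are standard errors over 3 arrays per pool and dashed lines the 2-fold limit. Inflammatory CC ligands run from -0.48 to 1.32, neutrophil-attracting CXC ligands all lie below 0, and Cxcr2 is at -0.95.

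The genes of one family lie in clusters, which the symbol rule did not use. In the GRCm38.p6 gene table, the 11 Ccl genes of chromosome 11 include Ccl4, Ccl9 and Ccl11, and of the 10 tested there 8 were above 0, with a median of 0.52. The Ccl2 gene in the same cluster was at -0.48, so neighbouring genes did not share a direction. The 5 tested Ccl genes of chromosome 4, the Ccl19, Ccl21 and Ccl27a group, had a median of -0.39 with 1 above 0. The near-identical Ccl21 copies are among the 5 and are not separate observations. Of 5 tested Cxcl genes on chromosome 5, Cxcl9 was above 0 and the other 4 below (median -0.19). On chromosome 9, the 8 tested receptor genes ranged from -0.43 to 0.11.

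Other genes of the pathway were counted from lists, on the representing probe of each gene. Of 28 tested genes of receptor signalling and chemotaxis none rose and 1 fell, with a median of 0.11. It was Gnb1, which encodes a G protein beta subunit (-1.81, limma adjusted p = 1.75e-07), and on a further probe the syndecan gene Sdc1 was at least 5.63-fold lower while its representing probe was at 0.25. Of 26 tested inducing cytokines and transcription factors none rose and 1 fell, Stat6, the factor of IL-4 and IL-13 signalling (-1.13, adjusted p = 1.78e-06), with a list median of 0.03. Il1a, an alarm cytokine of keratinocytes, fell on one probe (-1.47, above background on 1 knockout array) and was at -0.91 on its representing probe. Of 15 tested atypical receptors and chemokine-like genes 1 fell, Mif (-1.34, limma adjusted p = 3.15e-07), and none rose.

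Markers of the cells that make or follow these ligands moved in different directions, and their part in the results above was not tested. Whether the genes of a list are made by that cell type alone in this tissue was not tested either. A list's sum is led by its brightest genes and is no count of cells. All 12 keratinocyte genes were above background on all arrays of a pool, and none of the 3 B cell genes was on any array. Of the 12 keratinocyte genes 2 rose (Krt15, 3.12, and Krt10, 1.52) and 1 fell (Dsg3, -1.54), with a median of -0.01 and summed normalized intensities of 251837 to 256131 on the wild-type and 207289 to 221961 on the knockout arrays. Of 10 tested neutrophil genes 2 rose, Retnlg (2.41) and Ltf (1.68), and none fell. The list's median was 0.08, 6 of the 10 were above 0, and the lowest was at -0.91. Of the 12 neutrophil genes on the array 5 were above background nowhere, so this median includes genes at background. The sums were 53483 to 56281 and 66161 to 76588. Of 10 tested macrophage and monocyte genes none rose and 3 fell, among them Ly6c1 (-1.90) and Fcer1g (at least 2.39-fold lower). That list's median was -0.01, with 5 of the 10 above 0, a highest value of 0.50 and sums of 9838 to 10142 and 5168 to 5323. Of 6 tested pan-leukocyte genes none passed (median 0.12, 3 above 0; sums of 3957 to 4066 and 5557 to 6033). Among T and NK cells none of 7 tested genes passed (median 0.13; sums of 3257 to 3279 and 3734 to 4002), and 11 of the 15 on the array were above background nowhere. None of 6 tested mast cell and eosinophil genes passed (median -0.17), and 5 of the 10 on the array were above background nowhere. Of 6 dendritic and Langerhans genes 1 fell (H2-Aa, -1.57), with a median of -0.10 and 3 above 0. Of 7 endothelial genes 1 fell (Pdpn, -1.27), with a median of 0.10 and 4 above 0. Of 7 fibroblast genes 4 fell (median -1.11, none above 0). Over the processing settings some list medians changed sign. The endothelial one ran from -0.20 to 0.11 and the mast cell and eosinophil one from -0.24 to 0.21. The keratinocyte median ran from -0.01 to 0.13 and the macrophage and monocyte one from -0.09 to 0.0008. The pan-leukocyte median stayed above 0, from 0.12 to 0.69.

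Arrays of the same pool correlated at 0.987 to 0.994 over tested and untested probes and arrays of different pools at 0.961 to 0.964; probes are not independent. Knockout array 3 was the dimmest, with a median raw intensity of 109.9 against 124.5 to 148.2 on the others. Atf2 itself was near background: of 4 probes, 3 were above background on no array, and probe 2260348 gave 184.5, 176.2 and 186.3 for the wild-type pool and 171, 133.2 and 103 for the knockout pool (-0.28, limma adjusted p = 0.109). The position of these probes relative to the deletion is not stated in the labels, and they give no check of genotype.

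**Figure D4:**
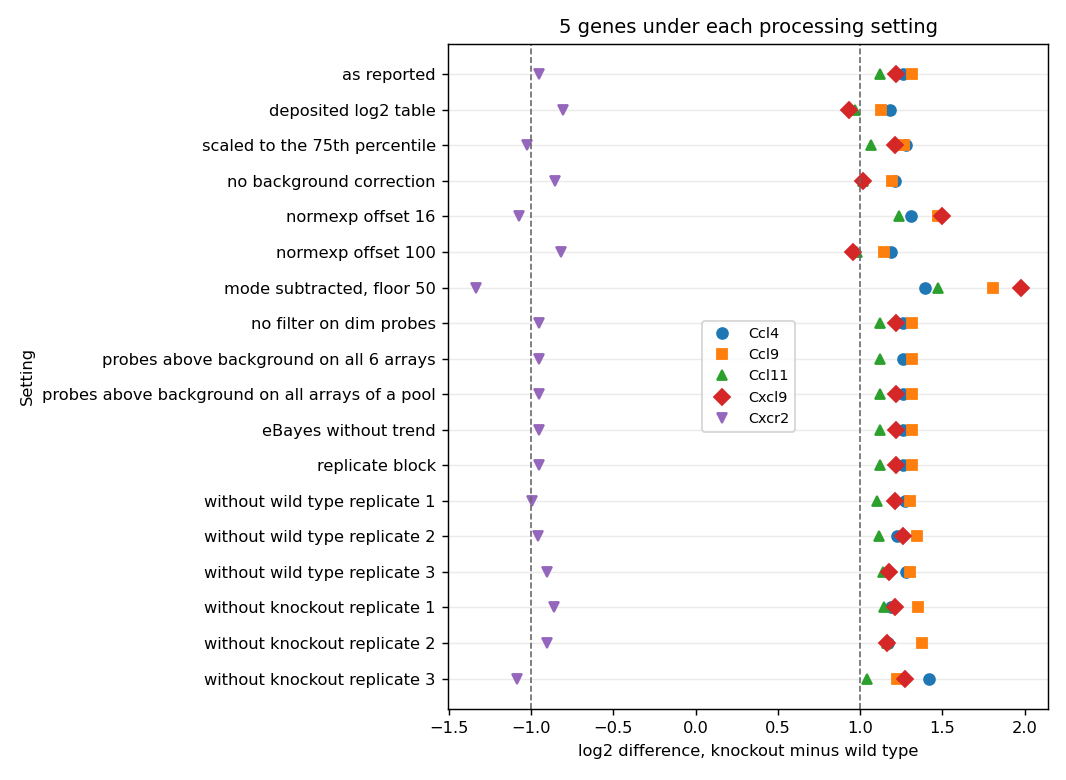
Log2 difference (knockout minus wild type) of Ccl4 (probe 430047), Ccl9, Ccl11, Cxcl9 and Cxcr2 under each processing setting and with each array left out; dashed lines mark the 2-fold limit. Ccl4 and Ccl9 stay above the upper line throughout, Ccl11 and Cxcl9 lie just below it with the deposited log2 table and with an offset of 100, and Cxcr2 crosses the lower line in 4 settings.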

How the data were processed

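Total RNA of 2 pools was measured on 6 arrays, grouped by the genotype in their titles. The deposited file of each array gives 1 raw, linear intensity for each probe, per the file headers, and the submitters' processing notes name BeadStudio 3. A second table deposited by the authors holds log2 values with a common distribution over the arrays; how they were made is not stated there. Raw intensities were corrected with limma's normexp (offset 50), converted to log2 and quantile-normalized. The 23058 probes with a mean above the median were fitted with limma (lmFit, eBayes with trend; R 4.3.3, limma 3.58.1), two-sided, with Benjamini-Hochberg adjustment. The fit was tested on simulated data. The offset shrinks differences of dim probes, and 3 arrays per pool limit precision.

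Where a probe was above background on no array of a pool, the bound compares the brighter pool's mean with, per array, whichever is higher of the probe's own value and the lowest value of any probe above background. Symbols came from GEO's platform annotation; all 70 member probes matched RefSeq (GRCm38.p6) by Entrez identifier, and 0 symbols changed. Promoter sequences are RefSeq's.

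Named were members past the threshold or above background on all arrays of a pool, partners of these, and for other lists at most 2 genes past the threshold in each direction. Further names are members at background, given to account for their groups, and genes past the threshold on another probe. The members, lists and tests were chosen with earlier results of these data known.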

Additional observations from a re-analysis of the deposited data

How the results depend on the processing

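The 4 rises were unchanged in the count without a filter on dim probes, with probes above background on all arrays of a pool, without a trend, without background correction, and with the replicate block (4 higher, 0 lower), and with each array left out (4 higher each time; 0 to 1 lower, the 1 being Cxcr2 without knockout array 3; 4 to 5 in all). The count past the threshold was 2, both higher (Ccl4 and Ccl9), with the deposited log2 table and with an offset of 100, and 9 with the mode subtracted and a floor of 50, of which 7 probes were higher and 2 lower. That setting tested 16119 probes, called 735 higher and 1291 lower among all of them, and moved the share of higher calls to 36.3% from 20.2%. With 75th percentile scaling and with an offset of 16, 1 member was lower. Requiring all 6 arrays above background left out Cxcl9, and 3 rises remained.

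The median over member genes was 0.0498 with 75th percentile scaling, -0.00834 when all 6 arrays had to be above background and -0.0836 when all arrays of a pool had to be; leaving out each array gave -0.05 to -0.02. Of 470 recomputed probe values 453 kept their direction and side of the threshold. Reversals were in probes near 0: Cxcl12 (4150750) at -0.0670 with 75th percentile scaling. With arrays left out Cxcl12 ran from -0.0449 to 0.0690, Cx3cl1 from -0.212 to 0.00390 and Cxcr4 from -0.0605 to 0.0205. The cause was not tested. Deviations of same-numbered arrays correlated at 0.11, -0.13 and 0.04, and those of differently numbered arrays at -0.19 to 0.14. The values thus gave no sign that the numbers pair the arrays, but 3 arrays per pool are too few to exclude it. Counting any tested probe of a gene also gave 4 genes. A background of mode plus 2 SD put 40 member probes above it on all arrays of a pool, against 28. No position or slide block could be fitted, since each pool holds its own positions on the one chip.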
